A study of Mus musculus with 31 samples.

Results

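The comparison described here set 8 libraries of polysomal RNA from R98S clones against 6 from WT clones, 14 of the 31 libraries of the series, and asked for which genes and functions the amount of mRNA bound to polysomes was higher or lower in R98S. Members were taken by the sample labels, which give RNA type, genotype, clone and replicate number. The cells were Ba/F3, a mouse lymphoid line that depends on interleukin-3. In all clones the endogenous Rpl10 was knocked down by a short hairpin RNA and replaced by a retroviral cDNA of human RPL10, either WT or with the R98S change, so that WT clones also carried the hairpin and the human cDNA. Each clone grew from a single cell. R98S was represented by clones 11, 13 and 35 and WT by clones 28, 29 and 36, that is 3 clones per genotype sequenced up to 3 times under numbers 1 to 3, and a line that is 1 clone can differ from the next for reasons other than the genotype. Number 1 held 3 R98S libraries and 1 WT library (clone 29), number 2 held 2 of each, and number 3 held 1 library from each of the 6 clones.

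RPL10 belongs to the large ribosomal subunit and joins it late in assembly, when the export adaptor NMD3 is released, and its R98S change recurs in T-cell acute lymphoblastic leukemia. An mRNA found in polysomes carries several ribosomes at once, so its amount there reflects both how much of the mRNA the cell holds and how many of its copies are being translated. The values below therefore give polysomal mRNA levels, and changes in mRNA abundance and in ribosome loading cannot be told apart from these libraries alone. In bulk samples such as these, fewer cells with an mRNA and less of it per cell cannot be told apart either.

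Libraries held 8831180 to 20754046 reads assigned to genes. Within a genotype, libraries differed by a chi-square of 4.64 to 409 per gene on whole reads, where sampling noise gives about 1. The closest pair was R98S clone 13 in numbers 1 and 2 (4.64), and next came R98S clones 11 and 35 in number 3 (9.997), while every other pair was at 27.0 or more. This measure covers counting error only and does not show whether such libraries came from separate cultures. Both pairs were kept as separate libraries, as labelled. Without one or the other library of the first pair 2420 and 2272 genes were called, and of the second 1978 and 1905, in place of 2381. The replicate number accounted for 93.0% of the variance of the first principal component, which held 43.2% of the total, and genotype for 88.2% of the second, which held 29.0%. Deviations from the genotype means correlated between R98S and WT libraries of the same number (r over genes of 0.70, 0.67 and 0.87 for numbers 1, 2 and 3), and the number was therefore kept as a block. Of the pro-B markers, Ptprc, Cd79a and Cd79b were present in WT at medians of 1245, 1429 and 259 normalized counts, whereas Il7r and Rag1 were at 0 in all 14 libraries and Ebf1 and Pax5 at no more than 1 read in any. The interleukin-3 receptor genes Il3ra, Csf2rb and Csf2rb2 were present, as were the myeloid and erythroid factors Gata2 and Gata1, at medians of 13921 and 2880.1 in WT. Markers of fibroblasts and epithelium summed to at most 7.08 normalized counts in any library.

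At an adjusted p under 0.1 (limma, replicate number as a block, libraries of 1 clone treated as correlated), 2381 of the 10707 genes with a mean of at least 10 normalized counts were called, which is 22.2% of the genes tested. Polysomal mRNA was higher in R98S for 1228 genes (11.5%) and lower for 1153 (10.8%). The median absolute log2 fold change was 0.84 among genes called higher and 0.63 among genes called lower. A change of at least 2-fold was found for 508 genes called higher and 228 called lower, and of at least 4-fold for 185 and 93. The mean levels of the 3 R98S clones all lay above those of the 3 WT clones for 980 of the 1228 genes called higher, and all below for 889 of the 1153 called lower. Over all genes tested, such a separation of clone means was present upward for 13.8% and downward for 13.4%. Many genes named below were picked for large changes, separate clone means or a small adjusted p. For them, libraries that did not overlap are a description and no independent evidence. When each clone was reduced to 1 mean value and the 3 were compared with the other 3 without the block, 751 genes were called, 476 higher and 275 lower. Clone means, here and in the separations above, were not adjusted for the replicate number. WT clone 36 was sequenced in number 3 only, so clone means mix clone with number. Without clone 11 there were 1501 calls, and without clone 35 there were 1384. Of the 182 called genes named in the text, 149 were called in every fit that left out 1 library or clone, and the 33 others are pointed out with their values in such a fit. WT clone 36 had 1 library, so leaving out the clone or its library is the same fit. Counts of such fits include it under both names. Libraries of 1 genotype come from 3 clones, so these p-values measure the spread between these clones and libraries.

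**Figure D1:**
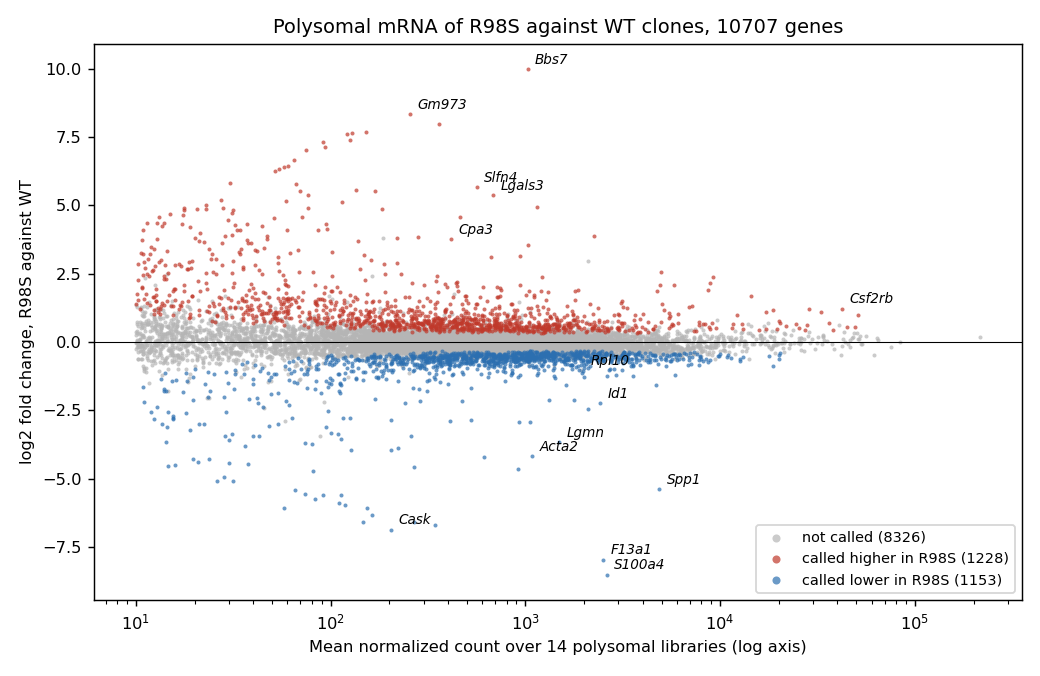
Each point is 1 of the 10707 genes tested, with its mean normalized count over the 14 polysomal libraries (log axis) against its log2 fold change, R98S against WT; red points were called higher and blue points lower at an adjusted p under 0.1. The 1228 higher and 1153 lower calls spread over the whole range of levels, and the largest changes in both directions belong to genes that are nearly silent in 1 genotype.

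The targeted gene was checked first. Polysomal reads of mouse Rpl10 (chrX:74270812-74273135) ranged from 666 to 2046 (median 1117) in R98S and from 1099.5 to 5567 (median 2719) in WT, and the gene was called lower in R98S (log2 fold change -1.05 ± 0.19, adjusted p = 0.00121). The counts come from a mouse annotation and the replaced gene is human, so these reads measure what is left of the endogenous mRNA together with any reads of the human cDNA or of processed copies that aligned to it. They do not identify the R98S base. Its level fell in each number (-1.21, -0.97 and -1.16).

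The largest increases came from genes that were almost silent in WT polysomes. Bbs7 (chr3:36573142-36613477), a subunit of the BBSome that carries cargo into cilia, ranged from 337 to 4123 (median 1946) in R98S and from 0 to 1.32 (median 0) in WT (log2 fold change 9.97 ± 0.46, adjusted p = 1.71e-10). Gm973 (chr1:59516264-59636417), a gene of unknown function, gave 328 to 646, median 444, in R98S against 0 to 1.46, median 0, in WT (log2 fold change 8.33 ± 0.34, adjusted p = 5.96e-11). Neither gene overlapped between genotypes in any library, and no WT library held more than 2 reads' worth of either. Because the fold change was computed after adding 1 to each value, it understates changes of genes with so few reads in WT.

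The same on and off pattern was seen for Lpgat1, an acyltransferase of the endoplasmic reticulum that acts on phosphatidylglycerol (109 to 386, median 274, in R98S against 0 to 1.17, median 0, in WT), and for Lgals7, the galectin-7 gene (111 to 416, median 158, in R98S against 0 to 1.17, median 0, in WT). Cytip, which binds cytohesin and regulates leukocyte adhesion (7.59 ± 0.36), and Car5b, a mitochondrial carbonic anhydrase (7.37 ± 0.52), had a median of 0 in WT. In all 4 of these genes every R98S library lay above every WT library. Lgals3, the galectin-3 gene (chr14:47367751-47386160), was expressed in both genotypes but ranged from 599 to 2174 (median 1019.8) in R98S and from 11 to 64.6 (median 25.9) in WT (log2 fold change 5.36 ± 0.25, adjusted p = 2.07e-10).

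Other large increases followed. Gpr183, the oxysterol receptor that positions B cells and T cells in lymphoid tissue, ranged from 104 to 366 (median 245) in R98S and from 1.32 to 13.3 (median 3.56) in WT (log2 fold change 5.55 ± 0.48, adjusted p = 5.95e-07). Sh2d2a, a T cell adaptor with an SH2 domain, gave 161 to 388, median 301, in R98S against 0 to 20.4, median 9.8, in WT (5.53 ± 0.59). Slfn4, a schlafen family gene of myeloid cells, ranged from 489 to 1571 (median 775) in R98S and from 2.64 to 222 (median 6.51) in WT (log2 fold change 5.65 ± 0.84, adjusted p = 0.000196). The 2 highest WT libraries were both from 1 clone, clone 28. Dhrs9, a short-chain dehydrogenase of retinoid metabolism, rose as well (log2 fold change 5.14 ± 0.66, adjusted p = 5.18e-05). The log2 fold changes of Sh2d2a and Dhrs9 were 6.83 and 6.50 without clone 29 and 4.90 and 4.54 without clone 36. That of Slfn4 was 7.30 without clone 28 and 4.06 without clone 29. Ptprcap, which encodes a protein associated with CD45, was called higher (log2 fold change 7.98 ± 0.67, adjusted p = 4.21e-07), but 76.0% of its exon bases lie opposite exons of Rps6kb2 and 26.8% are shared with Coro1b, so its reads cannot be assigned with certainty.

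Among decreases, the mirror pattern was found. S100a4 (chr3:90603771-90606045), a calcium-binding protein of motile cells, ranged from 0 to 48.9 (median 2.97) in R98S and from 634 to 21252 (median 1661) in WT (log2 fold change -8.52 ± 0.66, adjusted p = 1.77e-07). Of its exon bases, 51.7% are shared with the model Gm42674 on the same strand. F13a1, the A chain of coagulation factor XIII, ranged from 0 to 287 (median 15.1) in R98S and from 857 to 10027 (median 5941) in WT (log2 fold change -7.97 ± 1.13, adjusted p = 0.000133). Spp1, which encodes the secreted adhesion protein osteopontin, ranged from 28.5 to 641 (median 187) in R98S and from 3219 to 25313 (median 6179) in WT (log2 fold change -5.39 ± 0.71, adjusted p = 6.98e-05). Of the exon bases of Spp1, 18.8% are shared with the model Gm42793. For all 3 genes the libraries of the genotypes did not overlap. The size of the fall depended on the clones: the log2 fold change of F13a1 was -6.38 without clone 13 and -9.46 without clone 35, that of S100a4 was -7.77 without clone 13 and -9.21 without clone 36, and that of Spp1 was -6.11 without clone 35.

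Cask, a scaffold kinase of the membrane-associated guanylate kinase family, was close to absent from R98S polysomes (0 to 26.5, median 3.03, in R98S against 333 to 639.7, median 463, in WT), and so were Akr1e1, an aldo-keto reductase (0 to 35.1, median 1.95, in R98S against 311 to 437, median 375, in WT), and Gstm2, a glutathione transferase (0 to 12.9, median 4.95, in R98S against 135 to 592, median 344, in WT). Rnf217, a ubiquitin ligase of the RING family, showed the same difference (-5.91 ± 0.76), as did Ptplad2, a dehydratase of very long chain fatty acid synthesis (-5.98 ± 0.84). Of the exon bases of Ptplad2, 11.0% lie opposite Focad. For each of these 5 genes all 8 R98S libraries lay below the lowest WT library, which their choice by separate clone means makes likely. Fgf23, a phosphate-regulating hormone gene (log2 fold change -6.58 ± 0.85, adjusted p = 5.39e-05), Olfm3 (log2 fold change -6.58 ± 0.63, adjusted p = 2.44e-06) and Myct1, a MYC target of hematopoietic stem cells (log2 fold change -5.61 ± 0.82, adjusted p = 0.000159), also fell, with WT levels that differed widely between libraries: 0 to 9.53, median 0, in R98S against 13.3 to 1910.3, median 387, in WT for Fgf23 and 0 to 3.57, median 1.23, in R98S against 10.8 to 995, median 78.2, in WT for Myct1. Without clone 13 the log2 fold changes of Cask, Akr1e1, Rnf217 and Ptplad2 were -5.81, -5.66, -4.94 and -4.94, and without clone 35 they were -7.99, -7.34, -6.88 and -7.32. That of Myct1 was -4.91 without clone 36 and -7.30 without clone 29.

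**Figure D2:**
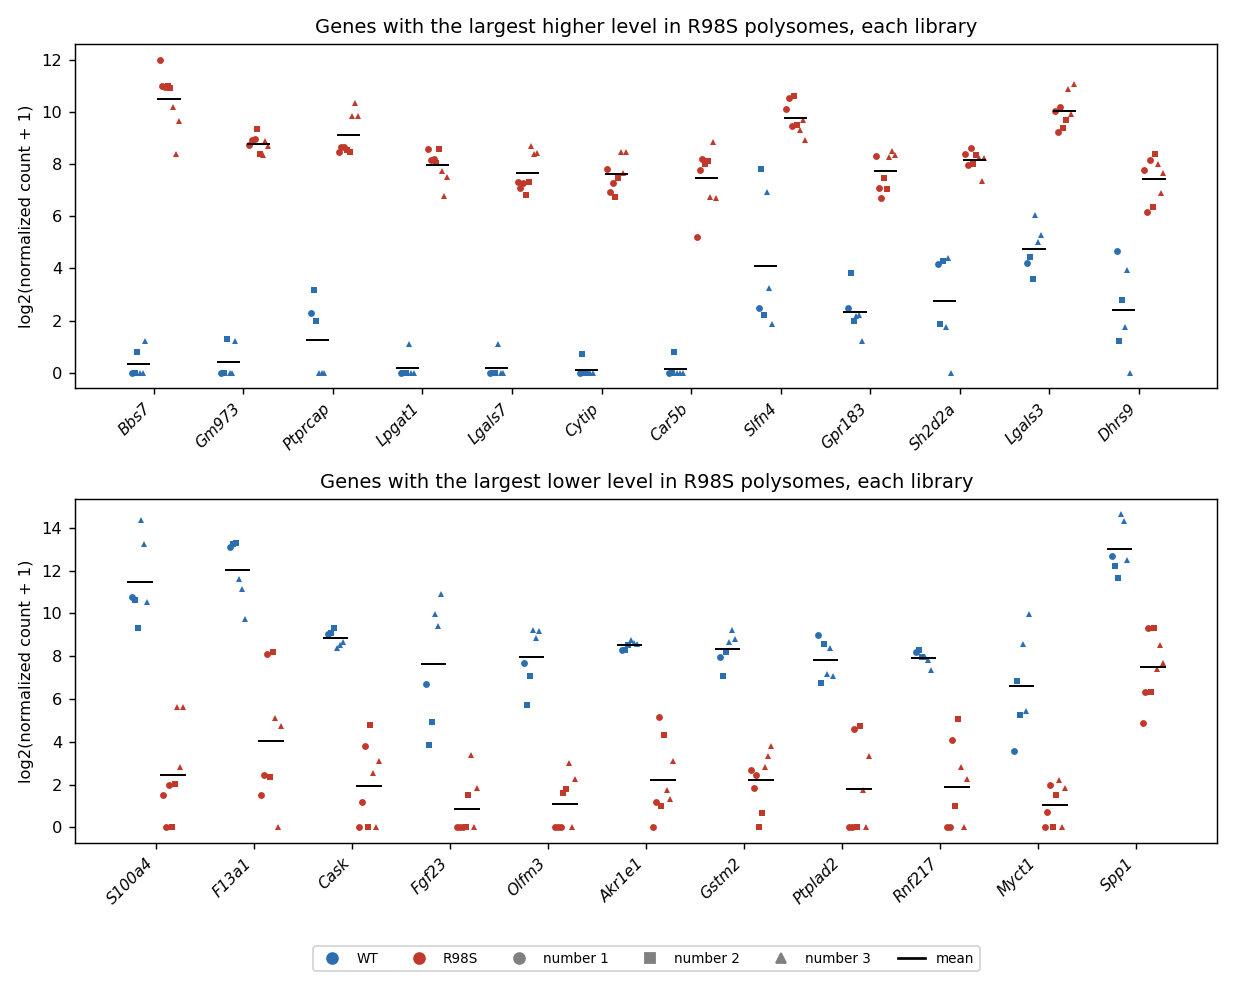
Log2(normalized count + 1) of 12 of the largest increases (top) and 11 of the largest decreases (bottom), taken from called genes whose mean reached 100 and whose clone means do not overlap; each symbol is 1 library, blue WT and red R98S, with the shape giving the replicate number and the bar the group mean. For Bbs7, Gm973, Lpgat1, Lgals7, Cytip and Car5b all WT libraries lie near 0, and S100a4, F13a1 and Cask are high in all 6 WT libraries.

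The calls were then read by function, over 52 gene lists. Lists are described by how many members were called and by their median, beside 11.5% called higher, 10.8% called lower and a median of -0.02 over all genes tested. In counts of list members, higher and lower mean called higher and called lower. Lists and members were chosen with earlier results of these data known, so their shares are a description and no independent evidence.

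Translation was taken first. Most mRNAs of other ribosomal proteins were not called. Of 34 small subunit genes, 7 were called higher and none lower (median 0.15), and of 48 large subunit genes other than Rpl10, 3 were called higher and none lower (median 0.13). Rps6, the small subunit protein phosphorylated downstream of mTOR, had the largest increase of its list (17493 to 53619, median 26509.6, in R98S against 11810.5 to 41806, median 21121, in WT, log2 fold change 0.61 ± 0.17, adjusted p = 0.0208), and Rpl10a of the other (log2 fold change 0.57 ± 0.15, adjusted p = 0.0149). Rpl36 lay at the other end with log2 fold change -0.32 ± 0.17, adjusted p = 0.218. The medians depended on the number. Large and small subunit lists stood at 0.47 and 0.46 within number 1, at -0.03 and -0.01 within number 2 and at 0.07 and 0.17 within number 3. With 1 mean value per clone and no block they turned to -0.14 and -0.08 with no member called. Such means are not adjusted for the number, on which these medians depended. Ribosomal proteins of mitochondria had 0 members called higher and 6 of 76 lower (7.89%, below the 10.8% over all genes). Among the lower ones were Mrpl32 (log2 fold change -0.62 ± 0.16, adjusted p = 0.0144) and Mrps27 (log2 fold change -0.56 ± 0.15, adjusted p = 0.0175). Of the exon bases of Mrps27, 24.2% lie opposite 6430562O15Rik. Without clone 35, 1 small subunit gene was called higher and 2 mitochondrial ones lower, and without clone 29 no large subunit gene was called higher. Counts also rose. Without clone 29, 16 mitochondrial genes were called lower, and number 3 only gave 14. Without the number 2 library of WT clone 28, 10 large subunit and 6 mitochondrial genes were called higher. The calls of Rps6 and Rpl10a were lost without clone 29 (log2 fold change 0.43 and 0.40) and that of Mrps27 without clone 35 (-0.49).

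Genes that build and drive ribosomes gave mixed results. Of 130 assembly factors, 8 were higher (6.15%) and 10 lower (7.69%), below the 11.5% and 10.8% over all genes. Nmd3, the adaptor that exports the large subunit and is released when RPL10 loads, ranged from 1024 to 3522 (median 1358) in R98S and from 1191 to 6105 (median 3317) in WT (log2 fold change -0.69 ± 0.18, adjusted p = 0.0169). Noc3l, a factor of early large subunit assembly, rose (log2 fold change 0.97 ± 0.20, adjusted p = 0.00357), as did Polr1e, a subunit of RNA polymerase I (log2 fold change 0.87 ± 0.17, adjusted p = 0.00213), and Ttf1, which terminates its transcription (log2 fold change 0.77 ± 0.20, adjusted p = 0.014). Of 37 genes of the RNA polymerase I and III machinery, Polr1e and Ttf1 were the 2 called higher, and 3 others were called lower. These shares, 5.41% and 8.11%, were also below those over all genes. None was called lower without clone 11, and 5 were without the number 2 library of WT clone 28. Among initiation factors, 2 of 49 were higher and 9 lower. The eIF4F helicase Eif4a2 (log2 fold change -0.90 ± 0.19, adjusted p = 0.00384) and the scaffolds Eif4g3 (log2 fold change -0.69 ± 0.15, adjusted p = 0.00577) and Eif4g1 (log2 fold change -0.74 ± 0.20, adjusted p = 0.0181) fell, and so did the repressor of this complex, Eif4ebp1 (log2 fold change -0.53 ± 0.13, adjusted p = 0.0128). Eef2k, the kinase that inhibits elongation factor 2, rose with log2 fold change 1.02 ± 0.26, adjusted p = 0.0149, and Dhps, which starts the synthesis of hypusine on eIF5A, fell with log2 fold change -0.77 ± 0.15, adjusted p = 0.00183. Without clone 35, 1 assembly factor and 4 initiation factors were called lower, and without its number 3 library 2 assembly factors were called higher. In the other direction, 29 assembly factors were called lower without clone 13 and 18 with the length and GC correction. Ranges of Eef2k overlapped (1051 to 2324, median 1968, in R98S against 263 to 2639, median 707, in WT), and its call was lost without clone 29 (log2 fold change 0.55), as was that of Eif4g1 without clone 35 (-0.66).

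Aminoacyl-tRNA synthetases, which charge tRNAs with amino acids, were lower more often: 10 of 39 were called lower and 1 higher (median -0.18). Gars, the glycyl-tRNA synthetase, ranged from 5003 to 8356 (median 6749) in R98S and from 8456 to 15567 (median 10279.8) in WT (log2 fold change -0.73 ± 0.15, adjusted p = 0.00414). Yars (log2 fold change -0.74 ± 0.15, adjusted p = 0.00272) and Farsa (log2 fold change -0.71 ± 0.16, adjusted p = 0.0060) fell by a similar amount, and the mitochondrial Mars2 was the one gene of the list called higher (log2 fold change 0.52 ± 0.18, adjusted p = 0.059). Without clone 35, 3 members were called lower. The call of Mars2 was lost in 8 of the fits that left out 1 library or clone, among them the one without clone 11 (log2 fold change 0.43).

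The ATF4 and amino acid stress response was read as a list of its own. ATF4 is the transcription factor that is translated when amino acids are short or eIF2 is phosphorylated, and its targets supply amino acids and charge tRNAs. Of 31 members tested, 12 were called lower and 0 higher, with a median log2 fold change of -0.38. Gars counts in this list and in that of the synthetases, so the results of these lists are not separate. Gpt2, a mitochondrial alanine transaminase (chr8:85492576-85527560), ranged from 622 to 876 (median 682) in R98S and from 1127 to 2577 (median 1692) in WT (log2 fold change -1.20 ± 0.16, adjusted p = 9.17e-05). Atf5, a related factor with the same kind of upstream reading frames, ranged from 78.9 to 142 (median 107) in R98S and from 195 to 363 (median 218) in WT (log2 fold change -1.29 ± 0.21, adjusted p = 0.000482). Trib3, a pseudokinase that feeds back on ATF4, gave 208 to 395, median 306, in R98S against 464 to 839, median 768, in WT (log2 fold change -1.16 ± 0.19, adjusted p = 0.000617). Libraries of the genotypes did not overlap for Gpt2, Atf5 and Trib3. Aldh18a1, the enzyme that starts proline synthesis, fell with log2 fold change -1.02 ± 0.17, adjusted p = 0.000715, and Nupr1 with log2 fold change -2.56 ± 0.45, adjusted p = 0.000895 at a low level. The highest member, Jdp2, stood at log2 fold change 0.45 ± 0.21, adjusted p = 0.151. The median was -0.40, -0.24 and -0.30 within numbers 1, 2 and 3, and 5 members were called lower with 1 mean value per clone.

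ATF4 acts through the amino acid response element, here searched as TGATGNAA on both strands within 250 bases before to 50 after each RefSeq start (GRCm38.p6). The letters were found for 9 of the 25 list members with a promoter entry, against 2.71% of the 8304 tested genes with one and 3.97% of all 32851 promoters. Of the 10 members called lower with an entry, 6 held a match, and of the 15 not called, 3. Over all tested genes the letters were found for 3.59% of those called lower, 3.09% of those called higher and 2.53% of the others. The list was chosen as known ATF4 targets, so its share is no independent evidence. Of the genes shown here, Pck2 (log2 fold change -0.46 ± 0.18, adjusted p = 0.095) lost its call in 13 of the fits that left out 1 library or clone and Asns (log2 fold change -0.65 ± 0.20, adjusted p = 0.0359) in 5. Without clone 35 they stood at -0.42 and -0.62 on the log2 scale. The matches of 3 genes called lower, picked after their values were seen because the element lies before the RefSeq start, are shown with the element in capitals, read 5′ to 3′ on the strand of the gene. The stretches of Asns and Nupr1 lie within the GENCODE bounds of those genes. For Nupr1 and Pck2 the element lies on the other strand and is shown as its reverse complement:
Asns, chr6:7693214-7693243, minus strand: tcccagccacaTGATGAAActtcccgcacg
Nupr1, chr7:126625562-126625591, minus strand: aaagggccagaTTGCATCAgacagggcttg
Pck2, chr14:55540152-55540181, plus strand: agccttcaaagTTACATCAgtatcttacag

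Supply of amino acids and one-carbon units moved in both directions. Among amino acid transporters 2 of 21 were higher and 5 lower. Slc38a6 ranged from 1900.2 to 12856 (median 8948) in R98S and from 936 to 1858 (median 1239) in WT (log2 fold change 2.08 ± 0.32, adjusted p = 0.000323). The system A transporter Slc38a1 (log2 fold change -0.84 ± 0.15, adjusted p = 0.0010) and the neutral amino acid exchanger Slc1a4 (log2 fold change -1.10 ± 0.24, adjusted p = 0.00523) fell. Of 29 serine, glycine and folate genes, 3 were higher and 7 lower. Gldc, the decarboxylase of the glycine cleavage system, ranged from 53.3 to 113 (median 81.1) in R98S and from 3.97 to 32.4 (median 14.7) in WT (log2 fold change 2.60 ± 0.47, adjusted p = 0.00124), with a log2 fold change of 3.52 without clone 29. Mthfd2, the mitochondrial folate dehydrogenase, ranged from 2269 to 4837 (median 2764) in R98S and from 3292 to 10909 (median 6403) in WT (log2 fold change -0.80 ± 0.15, adjusted p = 0.00145). Gart, which carries 3 steps of purine synthesis, fell with log2 fold change -1.03 ± 0.23, adjusted p = 0.0049, and 19.7% of its exon bases lie opposite Gm15964. It counts in this list and in that of purine and pyrimidine synthesis. Without clone 35, 2 transporters were called lower, and without the number 3 library of clone 11 there were 4 serine, glycine and folate genes.

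Other biosynthetic lists were read in the same way. All 8 called members of the cholesterol list, of 28 tested, were lower (median -0.33), with the squalene epoxidase Sqle at log2 fold change -0.65 ± 0.15, adjusted p = 0.00784, the methyl sterol oxidase Msmo1 at log2 fold change -0.69 ± 0.18, adjusted p = 0.0171 and the farnesyl diphosphate synthase Fdps at log2 fold change -0.67 ± 0.20, adjusted p = 0.0291. Of the exon bases of Fdps, 26.7% are shared with the model Gm43738 on the same strand. The median of this list was -0.41 and -0.52 within numbers 1 and 2 but -0.02 within number 3, which alone holds all 6 clones, and 5 members were called without clone 35. In purine and pyrimidine synthesis 8 of 37 members were lower and 2 higher. Rrm2, the small subunit of ribonucleotide reductase (log2 fold change -0.64 ± 0.15, adjusted p = 0.00782), Dut, which removes dUTP (log2 fold change -0.70 ± 0.17, adjusted p = 0.0092), and Impdh2, the entry to guanine nucleotides (log2 fold change -0.56 ± 0.15, adjusted p = 0.0157), all fell. Without clone 35, 5 were called lower. The call of Impdh2 was lost without clone 35 (log2 fold change -0.48) and that of Msmo1 without clone 29 (-0.35), where 2 cholesterol genes were called higher. In the tricarboxylic acid cycle 5 of 33 members were lower and none higher, among them the citrate synthase Cs (log2 fold change -0.40 ± 0.16, adjusted p = 0.0999). No member of this list was called lower without the block, with 1 mean value per clone, or without the number 3 library of WT clone 36. Without clone 13, 9 were called lower. The call of Cs was lost in 17 of the fits that left out 1 library or clone, with a log2 fold change of -0.35 without clone 35.

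Of 34 genes of glucose use 3 were higher and 5 lower, and 2 were called lower without the number 3 library of WT clone 28. Slc16a1, the lactate transporter MCT1, ranged from 1255 to 3443 (median 1613) in R98S and from 3181 to 4815 (median 3746) in WT (log2 fold change -1.02 ± 0.19, adjusted p = 0.00159). Its relative Slc16a3, the exporter MCT4, moved the other way from a low level (46.8 to 88, median 73.1, in R98S against 12.9 to 37, median 15.8, in WT, log2 fold change 1.65 ± 0.33, adjusted p = 0.00283). The glycolytic enzyme Eno1 fell (log2 fold change -0.69 ± 0.16, adjusted p = 0.00633). Taldo1 of the pentose phosphate pathway rose (log2 fold change 0.62 ± 0.16, adjusted p = 0.0125), a call that was lost without clone 29 (log2 fold change 0.31). In fatty acid and phospholipid synthesis 5 of 40 were higher and 7 lower, and without clone 35 there were 4 lower. Without the number 2 library of R98S clone 13, 3 were called higher. Acss2, which makes acetyl-CoA from acetate, ranged from 531 to 981 (median 747) in R98S and from 147 to 471 (median 279.6) in WT (log2 fold change 1.37 ± 0.17, adjusted p = 4.42e-05). The acyl-CoA synthetases Acsl1 (log2 fold change -0.76 ± 0.15, adjusted p = 0.00275) and Acsl3 (log2 fold change -0.88 ± 0.20, adjusted p = 0.00761) fell. Of the redox genes, 7 of 41 were lower and 2 higher. Among those lower were 2 targets of the NRF2 pathway, the glutathione synthesis subunit Gclm (1832 to 3933, median 2554, in R98S against 3615 to 7166, median 5527, in WT, log2 fold change -0.86 ± 0.16, adjusted p = 0.00166) and the quinone reductase Nqo1 (log2 fold change -0.89 ± 0.19, adjusted p = 0.0039). Without clone 11, 3 redox genes were called lower, and without the number 2 library of WT clone 28, 6 were called higher. Heme and iron genes had 5 of 29 members called higher and none lower, with Ncoa4, the receptor for autophagy of ferritin, at log2 fold change 0.88 ± 0.24, adjusted p = 0.0217. Without the number 3 library of WT clone 28, 1 member was called higher, and 3 were called lower in number 3 only and with the length and GC correction.

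Protein folding and lysosomal lists were read next. Of 42 cytosolic chaperones 10 were lower and 1 higher (median -0.22). Ppid, the cyclophilin 40 partner of HSP90, ranged from 1052 to 2569 (median 1455) in R98S and from 2758 to 5975 (median 3748) in WT (log2 fold change -1.26 ± 0.15, adjusted p = 2.37e-05). The ranges did not overlap. The chaperonin subunits Cct5 (log2 fold change -0.57 ± 0.15, adjusted p = 0.0183) and Cct7 (log2 fold change -0.54 ± 0.15, adjusted p = 0.0257) fell too, and the HSP70 cofactor Bag1 rose (log2 fold change 0.58 ± 0.15, adjusted p = 0.016). Without clone 35, 3 chaperones were called lower. In the endoplasmic reticulum list 9 of 45 were lower and 2 higher. Herpud1 (log2 fold change -0.72 ± 0.14, adjusted p = 0.00179) and Xbp1 (log2 fold change -0.55 ± 0.17, adjusted p = 0.0315), both of the unfolded protein response, were among those that fell. Without clone 11, 2 members of this list were called lower. None was called higher without the number 2 library of R98S clone 35, and 4 were without that of WT clone 28. The call of Xbp1 was lost without clone 29 (log2 fold change -0.28), clone 35 or clone 11, that of Cct7 without clone 35 (-0.48) or clone 11, and that of Cct5 without clone 35 (-0.49). Proteasome subunits showed 3 lower (7.5%) and 1 higher (2.5%) calls among 40, below the shares over all genes, and 10 were called lower without clone 29. Of 60 lysosome and autophagy genes, 11 were higher and 3 lower. With 1 mean value per clone 2 of them were called higher, and without the number 3 library of WT clone 28 there were 4. The peptidase Tpp1 ranged from 1183 to 2846 (median 2362) in R98S and from 552 to 1662 (median 892) in WT (log2 fold change 0.97 ± 0.14, adjusted p = 0.00018). Cathepsin B, Ctsb, gave 5129 to 6008, median 5227, in R98S against 3314 to 4034, median 3578, in WT (log2 fold change 0.58 ± 0.11, adjusted p = 0.00232), with 12.8% of its exon bases opposite Fdft1. Lgmn, the asparaginyl endopeptidase, went far in the other direction (137 to 366, median 283, in R98S against 1377 to 6415, median 2979.7, in WT, log2 fold change -3.68 ± 0.29, adjusted p = 2.17e-07).

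Cytokine signalling held some of the most abundant mRNAs that changed. Csf2rb, the common beta chain through which interleukin-3 signals, ranged from 22728 to 77238 (median 65049) in R98S and from 12079.5 to 39345 (median 21351) in WT (log2 fold change 1.21 ± 0.20, adjusted p = 0.000479). Its mouse paralog Csf2rb2, the interleukin-3 specific chain, ranged from 17261 to 51877 (median 43347) in R98S and from 8099.9 to 28034 (median 12498) in WT (log2 fold change 1.20 ± 0.19, adjusted p = 0.000424). The pair is nearly identical in sequence, so reads between them may be misassigned. Il3ra, the specific alpha chain, stood at log2 fold change 0.23 ± 0.25, adjusted p = 0.586. The cytokine genes Osm (4772 to 10624, median 5546, in R98S against 572 to 2949, median 2814, in WT, log2 fold change 1.85 ± 0.31, adjusted p = 0.000622), a target of STAT5, and Lif (939 to 2062, median 1810.2, in R98S against 269 to 1119, median 371, in WT, log2 fold change 1.85 ± 0.27, adjusted p = 0.000151) rose, and so did Socs1, a feedback inhibitor of JAK kinases (772 to 1466, median 1091, in R98S against 68.8 to 451, median 318, in WT, log2 fold change 1.97 ± 0.35, adjusted p = 0.00105). In the JAK-STAT list as a whole 11 of 57 members were higher and 5 lower. Without clone 11, 2 were called lower. Il2rb fell (log2 fold change -1.18 ± 0.29, adjusted p = 0.0119). Of early response genes, Jun (125 to 299.9, median 187, in R98S against 57.6 to 96.2, median 68.2, in WT, log2 fold change 1.46 ± 0.27, adjusted p = 0.00133) and Btg2 (log2 fold change 1.37 ± 0.25, adjusted p = 0.00116) rose, and Id1, an inhibitor of basic helix-loop-helix factors, fell with log2 fold change -2.24 ± 0.23, adjusted p = 6.13e-06, along with the ERK phosphatase Dusp6 (log2 fold change -0.90 ± 0.22, adjusted p = 0.00979). The calls of Il2rb and Dusp6 were lost without clone 29 (log2 fold change -0.81 and -0.60).

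Interferon response and antigen presentation lists were read next. The first comprises genes that type I and type II interferons switch on, and the second the class I and class II machinery that displays peptides. Of 40 interferon response genes tested, out of 62 in the table, 12 were called higher and 1 lower (median 0.36). Any of them that passed the filter only through the genotype where it is high had to differ. The exonuclease Isg20 ranged from 152 to 566 (median 210.1) in R98S and from 49.8 to 198 (median 109.9) in WT (log2 fold change 1.55 ± 0.17, adjusted p = 1.02e-05). The nuclear body protein Sp110 gave 164 to 370.2, median 267, in R98S against 74 to 136, median 93.8, in WT (log2 fold change 1.35 ± 0.21, adjusted p = 0.000365). The RNA sensor Oas3 ranged from 42.4 to 86.9 (median 68) in R98S and from 8.39 to 24.6 (median 18.8) in WT (log2 fold change 1.83 ± 0.27, adjusted p = 0.000201). Sp100 rose (log2 fold change 1.04 ± 0.18, adjusted p = 0.000663). Usp18, which removes the ubiquitin-like ISG15, was the gene called lower (log2 fold change -1.13 ± 0.32, adjusted p = 0.0255), and 4 were called lower without the number 2 library of WT clone 28. Of 28 antigen presentation genes, 11 were higher and 2 lower (median 0.28). H2-T23, a nonclassical class I gene (chr17:36029773-36032855), ranged from 918 to 1988 (median 1399) in R98S and from 243 to 739 (median 406) in WT (log2 fold change 1.72 ± 0.24, adjusted p = 0.00013). H2-Ob, a chain that restrains class II loading, ranged from 237 to 550.3 (median 286) in R98S and from 66.1 to 146 (median 105) in WT (log2 fold change 1.64 ± 0.24, adjusted p = 0.00015). The proteasome activator Psme2 rose (log2 fold change 0.97 ± 0.17, adjusted p = 0.000881). Nlrc5, which activates class I genes, fell (log2 fold change -1.70 ± 0.42, adjusted p = 0.0116). Class I genes are close paralogs, and reads of H2-Q4 (4.66 ± 0.40), H2-T22 and H2-T23 may be shared among them. Antisense genes lie opposite 19.1% of the exon bases of H2-Q4 and 29.4% of those of H2-T22.

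The core of the interferon-stimulated response element was searched as GAAA and GAAA separated by any 2 bases, on both strands in the same windows. It was present for 5 of the 10 interferon genes called higher that had an entry, for 10 of the 22 not called, and for 3.70% of tested genes. The list was chosen as genes that interferons switch on, so its share is no independent evidence. Over all tested genes it was found for 6.07% of those called higher, 3.59% of those called lower and 3.35% of the others. In the antigen presentation list it was present for 3 of the 9 genes called higher that had an entry and for 2 of the 13 not called. Of the genes shown here, Isg15 (log2 fold change 1.15 ± 0.37, adjusted p = 0.0412) lost its call in 3 of the fits that left out 1 library or clone, with a log2 fold change of 0.92 without clone 35. The window of Isg15 held 3 matches, of which only 1 is marked below. Matches before the RefSeq start of 3 genes called higher, picked after their values were seen, are given with the element in capitals, for H2-T23 on the opposite strand and within the GENCODE bounds of the gene:
Isg15, chr4:156200877-156200906, minus strand: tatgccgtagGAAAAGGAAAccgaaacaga
Oas3, chr5:120777715-120777744, minus strand: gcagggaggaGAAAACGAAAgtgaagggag
H2-T23, chr17:36032806-36032835, minus strand: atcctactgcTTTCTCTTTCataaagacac

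Targets of p53, the factor that responds to DNA damage and other stress, were read next. Of 28 members, 12 were called higher and 1 lower (median 0.45). Trp53inp1, which promotes p53 phosphorylation and autophagy, ranged from 502 to 1140.5 (median 898) in R98S and from 137 to 295 (median 231) in WT (log2 fold change 2.01 ± 0.24, adjusted p = 2.67e-05). The RNA-binding protein gene Zmat3 ranged from 951 to 2412 (median 1843) in R98S and from 504 to 696 (median 588) in WT (log2 fold change 1.54 ± 0.22, adjusted p = 0.000138). Cyclin G1, Ccng1, gave 4159 to 9604, median 6659.5, in R98S against 2385 to 3241, median 3099, in WT (log2 fold change 1.16 ± 0.19, adjusted p = 0.000449). None of the R98S libraries overlapped with WT for Trp53inp1, Zmat3 and Ccng1. Bax, the pore-forming cell death protein, rose by less (log2 fold change 0.80 ± 0.18, adjusted p = 0.0060) and its ranges overlapped. Of its exon bases 12.2% are shared with the model Gm45808. Eda2r, a receptor of the TNF family, was the member called lower, from a low level (0 to 7.31, median 0.76, in R98S against 7.32 to 42, median 31.4, in WT, log2 fold change -3.66 ± 0.65, adjusted p = 0.0011), with a log2 fold change of -4.51 without clone 35. The list median was 0.44, 0.52 and 0.42 within numbers 1, 2 and 3, and 8 members were called higher without clone 35, 8 without the block and 5 with 1 mean value per clone. In the apoptosis list 7 of 37 were higher and 4 lower. The BH3-only gene Bcl2l11 rose (log2 fold change 0.68 ± 0.19, adjusted p = 0.0202). The survival gene Bcl2l1 fell (log2 fold change -0.80 ± 0.24, adjusted p = 0.0343). Without clone 35, 2 apoptosis genes were called higher and none lower. The calls of Bcl2l11 and Bcl2l1 were both lost without clone 11 and without clone 35, with log2 fold changes of 0.67 for Bcl2l11 without clone 35 and -0.60 for Bcl2l1 without clone 11.

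**Figure D3:**
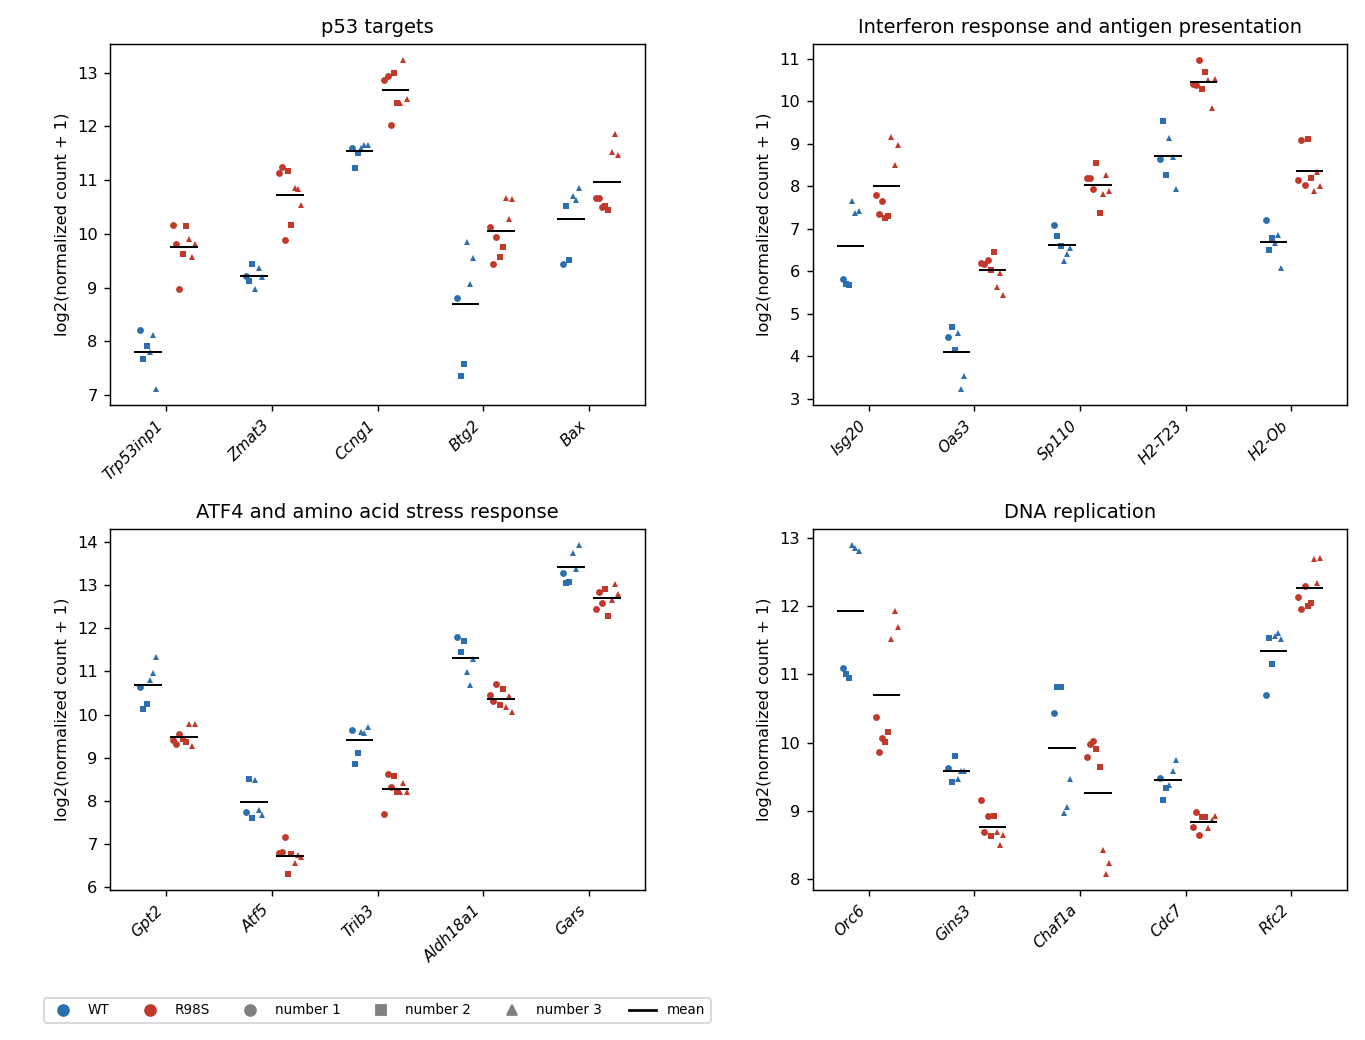
Log2(normalized count + 1) of 5 genes each from the p53, interferon or antigen presentation, ATF4 and DNA replication lists; each symbol is 1 library, blue WT and red R98S, with the shape giving the replicate number and the bar the group mean. R98S libraries sit above all WT libraries for Trp53inp1, Zmat3, Ccng1, Oas3, Sp110, H2-T23 and H2-Ob, and below all of them for Gpt2, Atf5, Trib3, Gars, Gins3 and Cdc7, while levels of Orc6 and Chaf1a also differ strongly between numbers.

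Lists of the cell division cycle were read next. Of 66 DNA replication genes 20 were called lower and 2 higher (median -0.30). Orc6, the smallest subunit of the origin recognition complex, ranged from 929.9 to 3884 (median 1234) in R98S and from 1978 to 7601 (median 4672) in WT (log2 fold change -1.03 ± 0.14, adjusted p = 8.65e-05), with higher values in number 3 in both genotypes. Gins3, of the replicative helicase, ranged from 362 to 569 (median 413) in R98S and from 689.5 to 894 (median 766) in WT (log2 fold change -0.84 ± 0.14, adjusted p = 0.000575). Cdc7, the kinase that fires origins, gave 399 to 504, median 474, in R98S against 572 to 857, median 691, in WT (log2 fold change -0.61 ± 0.14, adjusted p = 0.00664). For Gins3 and Cdc7 the genotypes did not overlap. Chaf1a, which loads histones behind the fork, fell (log2 fold change -0.88 ± 0.15, adjusted p = 0.000914), though 52.5% of its exon bases lie opposite Ubxn6. Rfc2, a clamp loader subunit, was higher (log2 fold change 1.01 ± 0.15, adjusted p = 0.000208), and 15.1% of its exon bases lie opposite Lat2, which was also called higher. In mitosis and kinetochore genes 14 of 77 were called lower and 2 higher (median -0.25). Racgap1, needed for cytokinesis, ranged from 3171 to 4328 (median 3757) in R98S and from 5529 to 6383 (median 5713) in WT (log2 fold change -0.65 ± 0.12, adjusted p = 0.00159). The kinetochore protein gene Cenpn fell with log2 fold change -0.75 ± 0.15, adjusted p = 0.00324, and the mitotic kinase Cdk1 with log2 fold change -0.48 ± 0.14, adjusted p = 0.0241. Melk, a kinase of dividing progenitors, went up (log2 fold change 0.74 ± 0.16, adjusted p = 0.00426). With 1 mean value per clone, 3 replication genes and 1 mitosis gene were called lower. Without clone 35 there were 9 replication genes lower, and without the number 3 library of WT clone 28 there were 5 mitosis genes. Without the number 2 library of that clone, 24 mitosis genes were called lower. The call of Cdk1 was lost without clone 11 (log2 fold change -0.42).

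Nuclear transport genes followed. None of 58 was higher and 11 were lower (median -0.26). The central channel protein Nup62 ranged from 1261 to 1829 (median 1532) in R98S and from 2047 to 3426 (median 2662) in WT (log2 fold change -0.82 ± 0.13, adjusted p = 0.000526). The scaffold Nup93 gave 1363 to 2009, median 1735, in R98S against 1859 to 3045, median 2867, in WT (log2 fold change -0.69 ± 0.15, adjusted p = 0.00433). The importin Tnpo3, which carries splicing factors, fell with log2 fold change -0.71 ± 0.15, adjusted p = 0.0036. The member with the highest value, Ipo13, stood at log2 fold change 0.18 ± 0.18, adjusted p = 0.552. Without clone 11, 5 members were called lower, and without the number 2 library of WT clone 28 there were 22. Clustered histone genes, whose replication-dependent mRNAs mostly lack a poly(A) tail and are largely missed by poly(A) selection, were higher for 6 of the 14 members tested out of 70 in the table. Histone genes that passed the filter only through the genotype where they are high had to differ, so no share is read from this list. Hist1h1c, a linker histone gene, ranged from 772 to 2722 (median 1838) in R98S and from 238 to 599.7 (median 331) in WT (log2 fold change 2.37 ± 0.32, adjusted p = 8.76e-05). Hist1h2bc ranged from 73.3 to 666 (median 204) in R98S and from 6.93 to 83.4 (median 50.1) in WT (log2 fold change 2.85 ± 0.46, adjusted p = 0.000419), with a log2 fold change of 2.12 without clone 29. Hist2h2be ranged from 315 to 744 (median 435) in R98S and from 214 to 248 (median 238) in WT (log2 fold change 1.08 ± 0.22, adjusted p = 0.00303). Without clone 35, 3 histone genes were called higher.

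In the splicing, chromatin and repair lists 13.9%, 11.5% and 10.4% of members were called lower, near the 10.8% over all genes. Of 101 splicing factors 14 were lower and 4 higher. Hnrnpa1 ranged from 14313 to 18483 (median 15922) in R98S and from 22515 to 28844 (median 23732) in WT (log2 fold change -0.63 ± 0.13, adjusted p = 0.00289). Luc7l fell (log2 fold change -0.63 ± 0.12, adjusted p = 0.00196). The kinase Clk1, which phosphorylates SR proteins, rose (log2 fold change 1.06 ± 0.17, adjusted p = 0.000449). Among chromatin genes (12 lower and 6 higher of 104), Ezh2, the methyltransferase of Polycomb complex 2, ranged from 1596 to 2439.8 (median 1793) in R98S and from 3047 to 4727 (median 3540.2) in WT (log2 fold change -0.99 ± 0.14, adjusted p = 0.000129), with no overlap between genotypes. The acetyltransferase Kat8 rose (log2 fold change 0.71 ± 0.15, adjusted p = 0.00309). In DNA repair 8 were lower and 6 higher of 77. The helicase gene Blm ranged from 1016 to 1373 (median 1144) in R98S and from 455 to 883 (median 558) in WT (log2 fold change 0.93 ± 0.18, adjusted p = 0.00219). The mismatch repair gene Msh3 fell (log2 fold change -0.76 ± 0.16, adjusted p = 0.00325). Without clone 35, 8 splicing factors and 3 chromatin genes were called lower, and without the number 3 library of WT clone 28 there were 3 repair genes. Higher calls fell to 3 chromatin genes without clone 35, to 2 splicing factors without the number 3 library of WT clone 28 and to 3 repair genes without that of R98S clone 13. They rose to 10 chromatin genes without the last of these libraries. Lower calls rose to 22 splicing factors without clone 29, and without the number 2 library of WT clone 28 there were 13 repair genes lower and 10 higher.

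Lineage genes were described next. In the B-lymphoid list, 7 of 24 tested members were called higher and 5 lower. Cd79b, a chain of the B cell receptor complex, ranged from 315 to 1288 (median 683) in R98S and from 119 to 613 (median 259) in WT (log2 fold change 1.64 ± 0.30, adjusted p = 0.00116). Its partner Cd79a stood at log2 fold change 0.29 ± 0.19, adjusted p = 0.327. Cd72 rose (log2 fold change 1.51 ± 0.19, adjusted p = 4.6e-05), with 41.6% of its exon bases opposite Tesk1. The T-cell and natural killer list had 10 tested genes of 39 in the table, of which 4 were called higher. A gene that passed the filter only through the genotype where it is high had to differ, so no share is read from this list. The same holds for the B-lymphoid, myeloid and erythroid lists, with 24 of 52, 32 of 58 and 21 of 37 members tested. Among those that rose were the kinase Lck (log2 fold change 0.86 ± 0.23, adjusted p = 0.016) and the receptor chains Cd3d (33.4 to 285, median 64.9, in R98S against 3.85 to 17.6, median 8.95, in WT, log2 fold change 3.35 ± 0.39, adjusted p = 1.77e-05) and Cd247 (log2 fold change 3.33 ± 0.61, adjusted p = 0.00132), all at low levels. Of the exon bases of Cd247, 56.4% lie opposite exons of another gene, and its log2 fold change was 2.61 without clone 36 and 4.09 without clone 28. The defining T-cell markers Cd8a, Cd4 and Cd3e were at 0, at no more than 0.603 and at no more than 2.40 normalized counts in any library. Cd3g, another such marker, was at 0 to 17.9 (median 1.37) in R98S and 0.77 to 36.6 (median 10.6) in WT, a mean too low to be tested.

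Myeloid and mast cell genes held calls in both directions, 8 higher and 10 lower of 32. Without the number 3 library of WT clone 28, 4 were called lower, and without clone 35, 4 were called higher. Tyrobp, an adaptor of activating receptors, ranged from 270.1 to 1357 (median 378) in R98S and from 56.4 to 349.9 (median 144) in WT (log2 fold change 2.20 ± 0.17, adjusted p = 1.87e-07). The receptor gene Fcgr3 ranged from 1696 to 7061 (median 3264) in R98S and from 740.1 to 3389.8 (median 1437) in WT (log2 fold change 1.49 ± 0.20, adjusted p = 8.11e-05). Cpa3, the mast cell carboxypeptidase, ranged from 198 to 1731 (median 458) in R98S and from 9.39 to 152 (median 44) in WT (log2 fold change 3.77 ± 0.68, adjusted p = 0.00113). Its log2 fold change was 5.23 without clone 29 and 3.08 without clone 28. The granule protease gene Prtn3 fell (52.3 to 178, median 74, in R98S against 199 to 1040.2, median 434, in WT, log2 fold change -2.16 ± 0.34, adjusted p = 0.000395), and so did Lyz2 at a low level (log2 fold change -2.99 ± 0.74, adjusted p = 0.0113). Without clone 28 they stood at -1.57 and -4.07 on the log2 scale. Summed over the 10 myeloid and mast cell markers, levels were 9679 to 15347 in R98S and 8695 to 26242 in WT, nearly all from Gata2, which was not called (log2 fold change -0.21 ± 0.17, adjusted p = 0.438). The granule gene Mpo ranged from 0 to 35 (median 0) in R98S and from 0 to 441 (median 1.39) in WT and was not called either (log2 fold change -1.28 ± 1.41, adjusted p = 0.588), with 15.0% of its exon bases opposite Gm11505. Of 21 erythroid and megakaryocyte genes 7 were called lower and 2 higher, and the factor Lmo2 was among those called lower (log2 fold change -1.12 ± 0.26, adjusted p = 0.00675). Without clone 35, 2 of this list were called lower. Of the erythroid markers, the hemoglobin gene Hba-a1 was called lower (6.08 to 19.1, median 10.3, in R98S against 15.9 to 863, median 58.4, in WT, log2 fold change -2.55 ± 0.81, adjusted p = 0.0408), and Klf1 (log2 fold change -0.56 ± 0.30, adjusted p = 0.232) and Epor (log2 fold change 0.23 ± 0.24, adjusted p = 0.569) were not called. The call of Hba-a1 was lost without clone 35 (log2 fold change -2.44), clone 28 (-1.20) or clone 13 (-2.27), and without clone 29 it stood at -3.77. The call of Lyz2 was lost without clone 29 (-2.11). Among hematopoietic transcription factors, Lyl1 ranged from 1061 to 1571 (median 1238) in R98S and from 1930.0 to 3928 (median 3129.7) in WT (log2 fold change -1.28 ± 0.18, adjusted p = 0.000138). Smad3 fell (log2 fold change -2.77 ± 0.53, adjusted p = 0.00178) and Runx2 rose (log2 fold change 1.20 ± 0.27, adjusted p = 0.00577).

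At the cell surface and in the cytoskeleton came the list of annexins, S100 proteins and lamins, which also holds Ahnak and vimentin. Its members were chosen with earlier results known, so its share is no independent evidence. Of 19 members, 1 was called higher and 10 were called lower (median -0.53). Besides S100a4 these included the giant scaffold Ahnak (11.9 to 39.5, median 19.7, in R98S against 99.8 to 256, median 203, in WT, log2 fold change -3.11 ± 0.30, adjusted p = 3.07e-06), vimentin, Vim (1670.1 to 3599, median 2682, in R98S against 4929 to 9884, median 7784, in WT, log2 fold change -1.56 ± 0.26, adjusted p = 0.000487), and the lamins Lmna (log2 fold change -1.28 ± 0.23, adjusted p = 0.00117) and Lmnb1 (log2 fold change -0.86 ± 0.15, adjusted p = 0.000653). Without clone 35, 6 members were called lower. Smooth muscle actin, Acta2, ranged from 34.4 to 354 (median 105) in R98S and from 1174 to 3733 (median 2364) in WT (log2 fold change -4.18 ± 0.43, adjusted p = 5.7e-06). The integrin gene Itga7 rose (56.9 to 118, median 65.8, in R98S against 1.2 to 26.4, median 2.86, in WT, log2 fold change 3.87 ± 0.50, adjusted p = 5.91e-05) and Egfl6 fell (0 to 7.31, median 0.643, in R98S against 42.3 to 92.5, median 59.1, in WT, log2 fold change -4.94 ± 0.60, adjusted p = 2.64e-05). The log2 fold changes of Acta2 and Egfl6 were -3.42 and -4.33 without clone 13, and that of Itga7 was 3.13 without clone 29. Among GTPase regulators Spata13, an exchange factor for CDC42, ranged from 7.6 to 39.5 (median 19.9) in R98S and from 112 to 415 (median 204) in WT (log2 fold change -3.39 ± 0.28, adjusted p = 3.46e-07). Rgs2 fell (log2 fold change -1.70 ± 0.21, adjusted p = 2.76e-05) and Iqgap1 rose (log2 fold change 1.30 ± 0.27, adjusted p = 0.00324).

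Membrane traffic genes were higher more often than lower. Of 78 Rab GTPases and SNARE proteins, 21 were called higher and 6 lower (median 0.16). Rab37, linked to exocytosis of secretory granules, ranged from 1137 to 1759 (median 1523) in R98S and from 212 to 537 (median 474) in WT (log2 fold change 1.88 ± 0.22, adjusted p = 1.96e-05). Rab19 ranged from 235 to 683 (median 438) in R98S and from 119 to 207 (median 156) in WT (log2 fold change 1.48 ± 0.26, adjusted p = 0.00094). Rab25 gave 62.1 to 209.8, median 87.8, in R98S against 24.9 to 68.1, median 42.1, in WT (log2 fold change 1.43 ± 0.22, adjusted p = 0.000297). With 1 mean value per clone 4 members were called higher, and without clone 11 there were 6. Without the number 3 library of WT clone 28, 2 were called lower. Of 46 cilium genes, Bbs7 included, 10 were lower and 3 higher. Bbs2, another subunit of the BBSome, fell at a low level (18 to 51.4, median 42.4, in R98S against 48 to 115, median 99.5, in WT, log2 fold change -1.41 ± 0.26, adjusted p = 0.0015), as did Dync2li1 of the retrograde motor (log2 fold change -1.50 ± 0.30, adjusted p = 0.00294). Tmem231 rose (log2 fold change 2.16 ± 0.31, adjusted p = 0.00013). Of 183 receptors of the G protein-coupled class and chemokines in the table, 56 were tested, and 14 were called in each direction. Members that passed the filter only through the genotype where they are high had to differ, so no share is read from this list. S1pr1, the receptor for lymphocyte egress, ranged from 57.8 to 237 (median 98.4) in R98S and from 268 to 595 (median 445) in WT (log2 fold change -1.67 ± 0.34, adjusted p = 0.00279). Gpr97 fell (148 to 246, median 205, in R98S against 428 to 788, median 536, in WT, log2 fold change -1.46 ± 0.18, adjusted p = 3.16e-05). Without clone 35, 6 genes of this list were called higher.

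**Figure D4:**
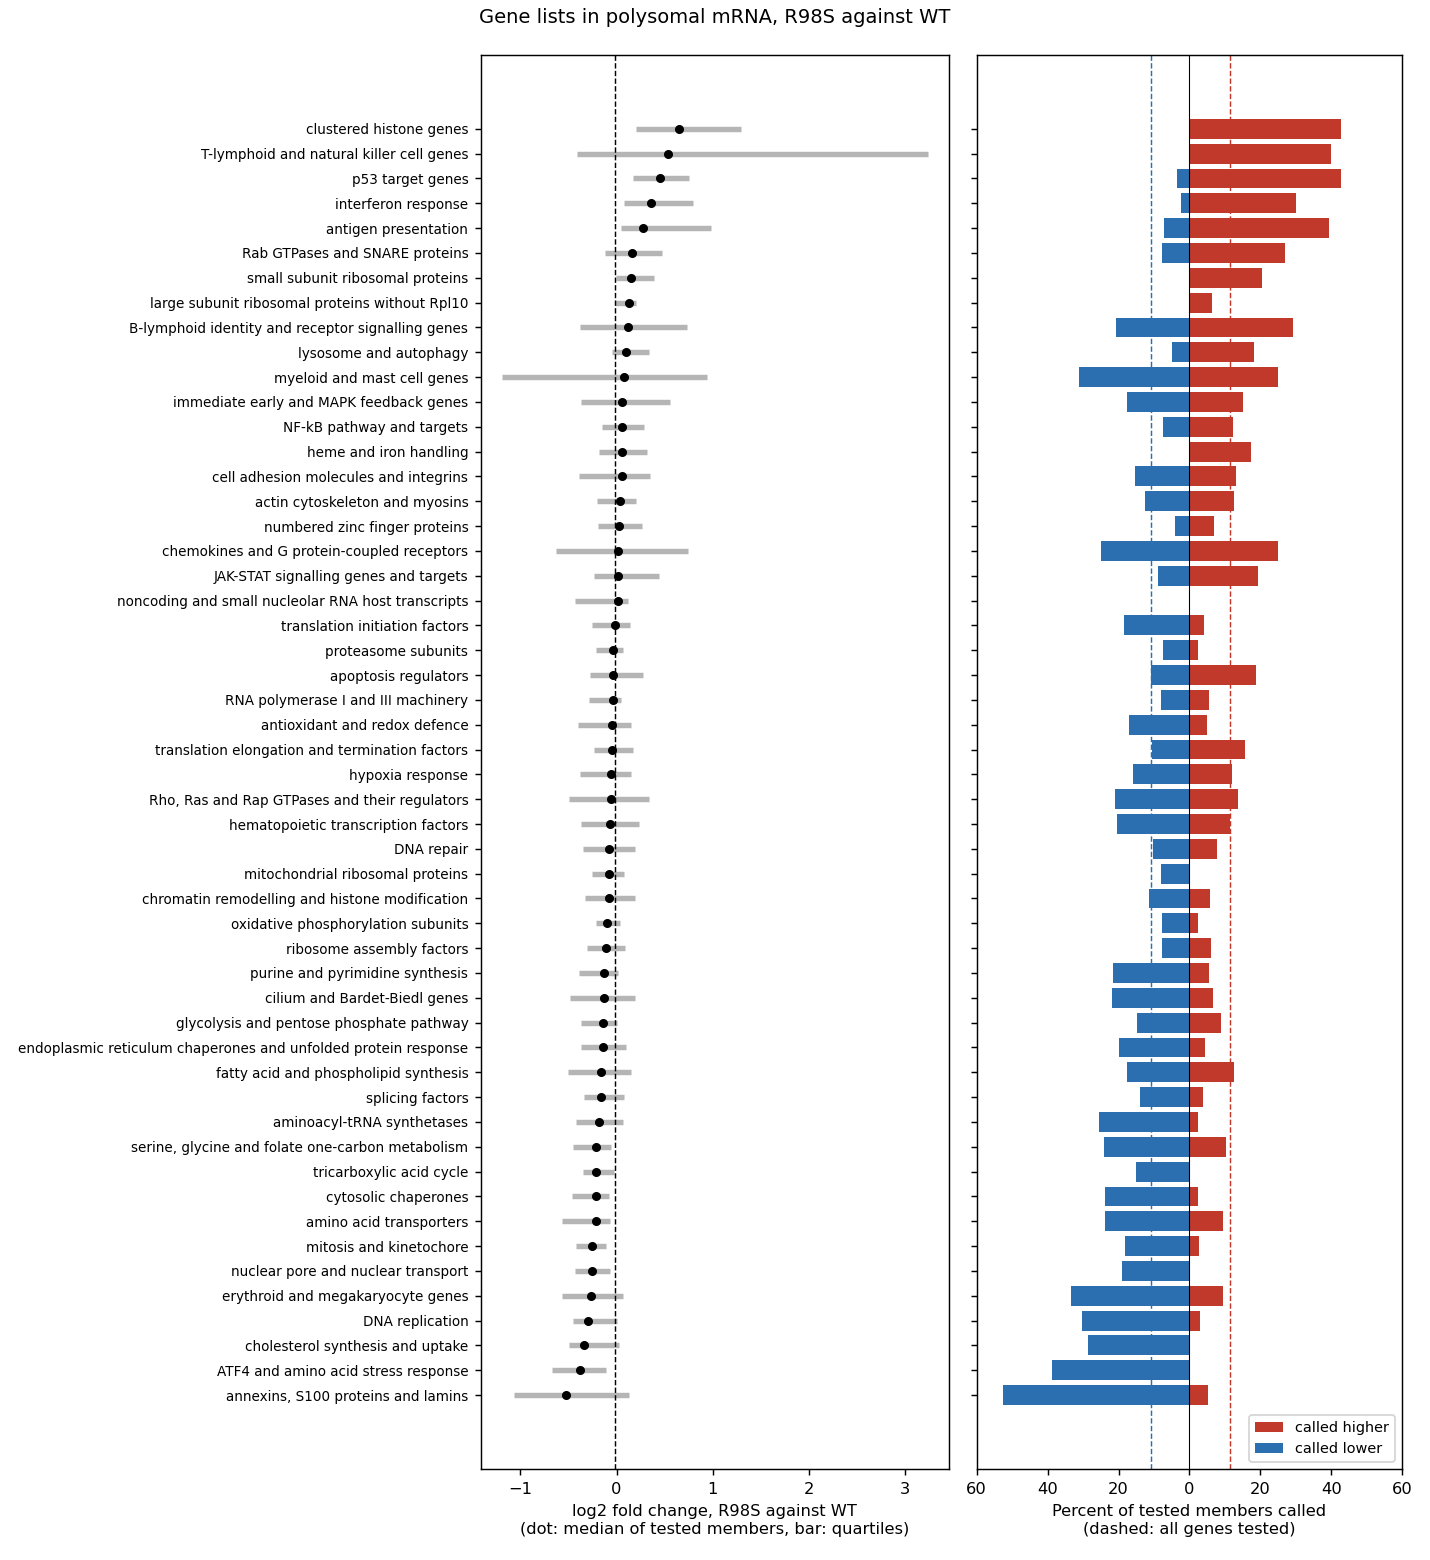
Left, the median (dot) and quartiles (bar) of the log2 fold change, R98S against WT, for the tested members of each of the 52 gene lists, with the median over all genes tested as a dashed line; right, the percent of tested members called higher (red, to the right) and lower (blue, to the left), with dashed lines at 11.5% and 10.8% for all genes tested. Medians of p53 targets and interferon response lie above the dashed line and those of annexins, ATF4, cholesterol and DNA replication genes below it. Positions of lists with few tested members, such as T-lymphoid genes and clustered histones, rest on those that passed the filter on low values.

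The most abundant genes called higher included Ifitm1, Rpl7, Csf2rb, Rps3 and Tpt1, and the 6 most abundant called lower were Pgk1, Calr, Hnrnpa1, Hmgb2, Atp5a1 and Ndufa4. Ifitm1, an interferon-induced membrane protein, ranged from 19285 to 139955 (median 27016) in R98S and from 10008 to 62908 (median 33466) in WT (log2 fold change 0.98 ± 0.21, adjusted p = 0.00401). Its median over all libraries was lower in R98S, but within each number its level was higher in R98S (1.31, 0.26 and 1.24). Tpt1, the translationally controlled tumor protein, was higher by 0.69 ± 0.23. Hmgb2, a chromatin protein of dividing cells, ranged from 10140.2 to 19374 (median 13079) in R98S and from 17985 to 34047 (median 26334) in WT (log2 fold change -0.89 ± 0.16, adjusted p = 0.00104). The endoplasmic reticulum chaperone Calr ranged from 15494 to 19842 (median 17436) in R98S and from 16752 to 28404 (median 24009.6) in WT (log2 fold change -0.47 ± 0.14, adjusted p = 0.0361). Of these 11 genes, Hnrnpa1 alone had ranges that did not overlap between genotypes, and single libraries of the other 10 overlapped. Several of these calls were lost when 1 library or clone was left out. Ndufa4 lost its call in 13 such fits (log2 fold change -0.57 without clone 35), Pgk1 in 12 (-0.30 without clone 28) and Rps3 in 7 (0.24 without clone 29). Tpt1 lost it in 6, Atp5a1 in 4 and Calr in 2 (0.66, -0.45 and -0.46 without clone 35), and Rpl7 in 2 (0.45 without clone 29).

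Direction and size were then compared between numbers. The medians within the 3 numbers had 1 sign for p53 targets, interferon response, ATF4 targets, DNA replication, mitosis and nuclear transport. They had opposite signs for mitochondrial ribosomal proteins (0.27 in number 1, -0.19 and -0.15 in the others) and for oxidative phosphorylation subunits (0.33, -0.28 and -0.13). Number 1 rests on a single WT library.

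**Figure D5:**
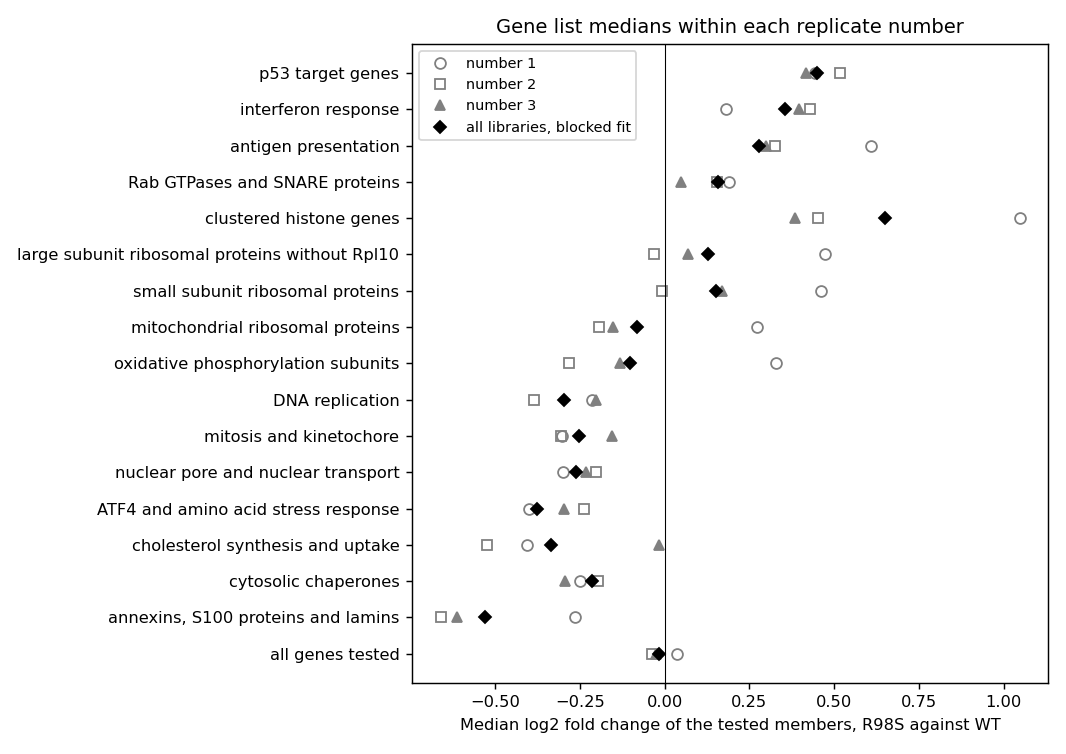
Median log2 fold change, R98S against WT, of the tested members of 16 gene lists and of all genes tested, within number 1 (open circles), number 2 (open squares) and number 3 (triangles), and in the blocked fit over all libraries (diamonds). Medians of the p53 and ATF4 lists lie close together in the 3 numbers, and those of cytosolic ribosomal proteins and oxidative phosphorylation spread from about 0 or below in number 2 to between 0.33 and 0.47 in number 1.

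Transcript size and base composition of called genes were close to those of the other genes. Median transcript length was 2114 bases for genes called higher, 2237 for genes called lower and 2039 for the others, and median GC content was 51.0%, 51.1% and 50.7%. Over the 10608 genes with an annotated transcript, the log2 fold change of the blocked fit had a Spearman correlation of -0.02 with length and -0.04 with GC content, given as a description because genes share libraries. Within numbers 1, 2 and 3 the correlation with GC content was 0.35, -0.27 and 0.02, and with length it was -0.18, 0.03 and 0.00058. Genes called higher had a lower median level (331 normalized counts) than genes called lower (689), and 543 was the median of the others.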

How the data were processed

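Polysomal RNA was sequenced from stranded mRNA libraries of 14 samples. Per the study's methods and the submitters' processing notes, the authors removed rRNA and tRNA reads with Bowtie2, aligned the rest to mm10 with TopHat2 2.0.11, kept mapping quality of at least 10, counted reads per gene with HTSeq and deposited counts divided by DESeq2 size factors (a signal value per gene). Whether counting used strand is not given in the sources used here. All values were whole multiples of 1 read within a tolerance of 0.05, so whole reads and depth were recovered (8831180 to 20754046 reads). The total mRNA libraries were not analysed here.

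Genes with a mean of at least 10 were tested on log2(value + 1) with limma 3.58.1 in R 4.3.3, with the replicate number as a block and clone as a correlated unit, and Benjamini-Hochberg adjustment over 10707 genes at 0.1. Same-numbered libraries deviated together (r = 0.70, 0.67 and 0.87), so the number was taken as a pairing. On whole reads, edgeR 4.0.16 (quasi-likelihood) called 3288 genes, and DESeq2 1.42.0 was a further alternative. Neither count model had a term for clone, so libraries of the same clone were taken as independent. The fit was tested on simulated data. Named genes were the replaced gene, the 12 largest changes per direction with a mean of at least 100 and separate clone means, the 6 most abundant calls per direction, up to 5 members per list with the smallest adjusted p, list extremes and cell type markers. Lists and members were chosen with earlier results of these data known. Gene positions are from GENCODE (mm10) and promoters from RefSeq (GRCm38.p6). Some genes and a promoter sequence are not reported here.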

Additional observations from a re-analysis of the deposited data

Results flagged for a closer look

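Single libraries that stood far from the rest of their genotype were looked for in 386 groups (193 named genes in each genotype) by the gap to the nearest library as a share of the range, at a limit that chance passes in about 5% of groups. It was passed in 19 groups (4.92%), of which 7 concerned the number 2 library of WT clone 28 and 4 the number 3 library of R98S clone 13.

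The number 2 library of WT clone 28 was the highest WT library for Il3ra (799 normalized counts), Mpo (441) and Cytip (0.666). It was the lowest for Ccng1 (2385), Eda2r (7.32), Sqle (2074) and Zfp207 (2452). The number 3 library of R98S clone 13 was the lowest R98S library for Jdp2 (163), Lif (939) and Lmna (184) and the highest for Mpo (35.0). Other R98S libraries that stood apart were the lowest for Iqgap1 (613, clone 35 number 3) and for Trib3 (208, clone 11 number 1).

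Among the remaining WT libraries, clone 29 number 2 was lowest for Socs1 (68.8), clone 36 number 3 was lowest for Lat2 (5.29), and clone 29 number 3 was highest for Ccl3 (10.8). In 3 genes with WT libraries otherwise at 0, a single read set the library apart: Lpgat1 and Lgals7 at 1.17 in clone 28 number 3, and Car5b at 0.732 in clone 29 number 2. The same holds for Cytip above.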

How the results depend on the processing

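Of 182 called genes named in the text, none changed direction under any alternative. With the replicate block removed, 1801 genes were called (970 higher, 831 lower) in place of 2381, and 157 of the 182 were kept. With libraries treated as independent, 3307 were called with the block (1625 higher, 1682 lower) and 1449 without it (629 lower). With 1 mean per clone there were 751 calls (476 higher, 275 lower) and 123 of the 182 were kept, and in numbers 1 and 2 only 425 (269 and 156), with 84 kept. Number 3 only gave 2234 calls, the block with a length and GC correction 2874, edgeR 3288 and DESeq2 3468, of which 1750 were lower. Both edgeR and DESeq2 took libraries of the same clone as independent. Leaving out 1 library or clone gave 1384 to 3117 calls, 766 to 1566 higher and 618 to 1551 lower. The calls fell to 1501 without clone 11 (780 higher, 721 lower) and to 1384 without clone 35, and lower calls to 768 without the number 3 library of WT clone 28. The cause was not tested.

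Some genes that were not called changed sign. The log2 fold change in numbers 1 and 2 only was -0.13 for Epor and -0.071 for Il3ra, and in number 3 only it was 0.99 for Mpo and 0.20 for Ptprc. Over all fits that left out 1 library or clone, it ranged from -0.061 to 0.56 for Epor, from -0.099 to 0.50 for Il3ra and from -0.058 to 0.30 for Ipo13, each lowest without clone 29. For Mpo it ranged from -2.61 to 0.25, with 0.076 without the number 2 library and 0.25 without all of WT clone 28. With 3 clones per genotype, clone differences and genotype cannot be fully told apart, and number 1 has 1 WT library.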

Other observations

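Of the 78 oxidative phosphorylation subunits tested, 2 were called higher (2.56%) and 6 lower (7.69%), below the shares over all genes. Without clone 29, 19 were called lower. None was called higher without the number 3 library of WT clone 36, and 5 were without the number 2 library of WT clone 28. The complex I subunit Ndufa5 ranged from 617 to 3534 (median 929) in R98S and from 808 to 4671 (median 2793) in WT (log2 fold change -0.68 ± 0.22, adjusted p = 0.046), and another, Ndufv2, fell with log2 fold change -0.56 ± 0.17, adjusted p = 0.0297. In the hypoxia list 3 of 25 members were higher and 4 lower. Ndrg1, a gene induced by low oxygen and by growth arrest, ranged from 108 to 1501 (median 820.2) in R98S and from 1282 to 6451 (median 2302) in WT (log2 fold change -2.12 ± 0.46, adjusted p = 0.00464), and Car9, a surface carbonic anhydrase and a classical target of HIF, rose (log2 fold change 1.01 ± 0.17, adjusted p = 0.000715).

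Of 41 genes of the NF-kB pathway 5 were higher and 3 lower. The chemokine gene Ccl3 was higher from a low level (0.918 to 139.9, median 6.2, in R98S against 0 to 10.8, median 0.587, in WT, log2 fold change 2.85 ± 0.87, adjusted p = 0.0338), and the deubiquitinase Cyld, an inhibitor of the pathway, fell (log2 fold change -0.62 ± 0.14, adjusted p = 0.00591). Numbered zinc finger genes had 18 of 255 members higher (7.06%) and 10 lower (3.92%), below the shares over all genes. Zfp207, which encodes a microtubule-binding protein that stabilizes the checkpoint factor BUB3, ranged from 6186 to 13806 (median 8095) in R98S and from 2452 to 4801 (median 3937) in WT (log2 fold change 1.26 ± 0.16, adjusted p = 5.19e-05). The actin list had equal numbers of calls in each direction, 8 and 8 of 64. Without clone 35, no oxidative phosphorylation subunit and 1 hypoxia gene were called lower, no NF-kB gene and 5 actin genes were called higher, and zinc finger calls were 6 higher and 2 lower. Without the number 2 library of clone 35, 1 hypoxia gene was called higher, and without clone 28, 1 NF-kB gene was called lower. Zinc finger calls rose to 28 higher without clone 29 and to 23 lower without the number 2 library of WT clone 28. The calls of Ndufa5, Ndufv2 and Ccl3 were lost without clone 35 (log2 fold change -0.62, -0.52 and 2.84), and that of Ndufa5 in 5 such fits in all. The log2 fold change of Ndrg1 was -1.39 without clone 13, and that of Ccl3 was 2.23 without clone 36 and 3.92 without clone 29.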
